A study of Mus musculus with 8 samples.

Results

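The genes described here are 6 enzymes that write or remove marks on DNA and histones: Dnmt1, Dnmt3a, Dnmt3b, Kdm6b, Kmt2a and Hdac11. A probe set counted for a gene where the array annotation gave it that symbol and no other, and the brightest such probe set, by its mean over all 8 arrays, supplied the gene's value. By this rule 5 of the 6 genes were measured, by 13 of the 20380 probe sets that carried 1 symbol, among 12393 genes in all. No probe set was matched to Kdm6b by this rule, and it was not analysed here.

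Expression was measured in 3 groups of sorted bone marrow cells from mice of strain C57/BL6, all labelled 12 weeks of age. Ezh2 KO LICs (2 arrays) were leukaemia-initiating cells of a retroviral mouse model of chronic myeloid leukaemia (CML) that lacked Ezh2. WT LICs (3 arrays) came from the same model with wild-type Ezh2. In both LIC groups GFP-positive, lineage-negative, Sca1-positive, Kit-positive cells were taken 14 days after bone marrow transplantation. LSK cells (3 arrays), titled WT HSC, were lineage-negative, Sca1-positive, Kit-positive cells of normal marrow, for which no transplantation or retrovirus is given. The GFP gate is meant to keep the infected donor cells and leave out host cells, and the purity reached was not tested here. The sources used here do not give the insert and promoter of the retrovirus, the Ezh2 allele, any Cre driver or the number of animals behind each sample. The arrays are labelled as biological repeats.

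DNA methyltransferases place methyl groups on cytosines, mostly at CpG dinucleotides. Dnmt1 copies the pattern onto the new strand after replication, while Dnmt3a and Dnmt3b set methylation on unmethylated DNA. Dnmt3a is known in blood-forming stem cells as a regulator of the balance between self-renewal and differentiation. Kmt2a (MLL1) methylates lysine 4 of histone H3 and is needed for normal blood stem cells and for the expression of Hox genes. Hdac11 is the sole class IV member of the zinc-dependent histone deacetylases, and it also removes long fatty acyl groups from lysine. Kdm6b removes methyl groups from lysine 27 of histone H3, the mark that Ezh2 places.

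Promoter sequences of 3 of these genes are shown, since their patterns on the arrays differed: Hdac11 was the gene that passed the test, Kmt2a was lower in LICs without passing it, and Dnmt1 held nearly the same level in all groups. Each runs from 250 bases before to 50 bases after the start site, 5′ to 3′, from RefSeq on build GRCm38.p6. Capitals mark matches to the motifs searched, which here were CCAAT (NF-Y) or its reverse complement and TTTGGCGC (E2F).
Hdac11, chr6:91156565-91156864, plus strand: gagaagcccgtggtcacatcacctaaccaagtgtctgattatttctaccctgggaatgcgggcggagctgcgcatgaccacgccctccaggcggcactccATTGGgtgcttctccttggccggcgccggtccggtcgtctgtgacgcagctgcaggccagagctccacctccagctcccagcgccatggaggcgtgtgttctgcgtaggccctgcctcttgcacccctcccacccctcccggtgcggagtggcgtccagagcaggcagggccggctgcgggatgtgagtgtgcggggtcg
Kmt2a, chr9:44881240-44881539, minus strand: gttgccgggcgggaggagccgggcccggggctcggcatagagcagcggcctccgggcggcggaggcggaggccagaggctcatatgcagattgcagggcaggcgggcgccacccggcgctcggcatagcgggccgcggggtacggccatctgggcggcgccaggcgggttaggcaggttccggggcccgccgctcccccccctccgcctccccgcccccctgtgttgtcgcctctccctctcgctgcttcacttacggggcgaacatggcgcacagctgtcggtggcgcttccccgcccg
Dnmt1, the third of 3 listed starts, chr9:20952574-20952873, minus strand: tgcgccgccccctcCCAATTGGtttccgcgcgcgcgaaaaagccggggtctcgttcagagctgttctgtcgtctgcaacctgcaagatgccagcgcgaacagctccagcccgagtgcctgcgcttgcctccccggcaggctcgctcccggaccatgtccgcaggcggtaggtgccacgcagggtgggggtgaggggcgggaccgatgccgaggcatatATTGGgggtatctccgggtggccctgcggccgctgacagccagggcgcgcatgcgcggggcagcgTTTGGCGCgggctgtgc
The Hdac11 window held 22 CpG dinucleotides and was 66.7% G or C. The Kmt2a window held 36 CpG at 75.7% G or C, and this Dnmt1 window held 33 CpG at 69.7%. Over 32851 promoter windows the median was 7 CpG, with quartiles of 3 and 20, so all 3 windows lay above the upper quartile.

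Motifs were searched on both strands. The Hdac11 window had 1 match, CCAAT on the reverse strand at position -150 from the start site. CCAAT occurred in 37.4% of all promoter windows. The Dnmt1 window had the E2F letters TTTGGCGC at position 34, which 0.514% of windows held, and CCAAT at positions -236, -233 and -32, the first pair overlapping. The Kmt2a window and the Dnmt3b window (30 CpG, 76.0% G or C) had no match to any motif searched. Of the other listed Dnmt1 starts, the first held 2 CpG and 5 matches to CCAAT, at positions -137, -80, -69, -28 and 18, and the second held 12 CpG and no match. The 3 listed Dnmt3a starts held 46, 47 and 18 CpG, and no Dnmt3a window had a match. The other motifs searched were TTTCCCGC (E2F, 1.07% of windows), TGACGTCA (CRE, 1.79%), TGAGTCA and TGACTCA (AP-1, reverse complements of each other, 5.2%) and TTCNNNGAA (STAT5, 8.3%). These matches describe letters in a window, not binding.

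The deposited values were linear intensities and were turned into log2, and a value at or under 4.01, the level that no unspiked bacterial control exceeded on average, was taken as background. Differences were tested with limma over all 12393 genes, and a gene was called at a Benjamini-Hochberg adjusted p under 0.05. Ezh2 measured 8.94 and 9.55 in Ezh2 KO LICs, 11.33, 11.44 and 11.26 in WT LICs, and 10.77, 10.95 and 11.07 in LSK cells. The KO arrays were the lowest, by -2.10 against WT LICs (limma adjusted p = 0.00985, or 0.055 where LSK arrays were left out of the fit) and by -1.69 against LSK cells (limma adjusted p = 0.0107). Ezh2 signal thus remained above background, and the sources used here do not say whether the probe set reads the deleted exons. Kit stood between 9.69 and 11.05, Cd34 between 11.62 and 12.31 and Ptprc between 9.93 and 11.06 on the 8 arrays, while Ms4a1 and Itgam were under background on every array and Cd3e on 7 of them. Ly6a, the gene of Sca1, was not analysed here. Replicate 3 of WT LICs stood apart from the other WT LIC arrays, with Xist at 4.35 against 10.68 and 11.06, Dntt at 12.14 against 9.89 and 9.58, and the lowest array weight (0.513). The Y-linked gene Eif2s3y lay between 9.21 and 9.80 on the LIC arrays and under background on the LSK arrays, while Xist was present in LSK cells at 12.45 to 12.69. Xist was also high beside Eif2s3y on the Ezh2 KO arrays, at 10.69 and 11.18, and on replicates 1 and 2 of WT LICs. What this mix says of the sex of the cells was not tested. The sources used here give neither the sex of the animals nor an array batch, so sex, batch, transplantation, infection and leukaemia cannot be told apart between LICs and LSK cells.

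Of the 5 measured genes, 1 was called in WT LICs against LSK cells and the same 1, Hdac11, in Ezh2 KO LICs against LSK cells, both times lower. None of the 5 was called in Ezh2 KO LICs against WT LICs, where limma called 0.637% of all genes (73 higher, 0.589%, and 6 lower, 0.0484%). At an unadjusted p under 0.05 the same fit took 1 of the 5, Hdac11. In WT LICs against LSK cells 3.42% of all genes were called, 1.27% higher and 2.15% lower. In Ezh2 KO LICs against LSK cells 3.47% were called, 1.61% higher and 1.86% lower. Higher genes made up 37.0% of the calls in WT LICs against LSK cells and 46.5% in Ezh2 KO LICs against LSK cells. Centring each array on its median turned these shares to 58.3% and 66.6%, with the median of all genes at 0.15 and 0.11, and cyclic loess gave 57.3% for Ezh2 KO LICs against LSK cells. Without these settings the median difference over all genes was -0.05 in Ezh2 KO against WT LICs, 0.02 in WT LICs against LSK cells and -0.02 in Ezh2 KO LICs against LSK cells. The labels do not say that samples came from separate animals beyond calling them biological repeats, so p-values measure the spread between these arrays. No single gene's brightness was compared with that of another gene. The summed linear intensities given below do add different genes, so the brightest genes of a list weigh most in its sum.

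**Figure D1:**
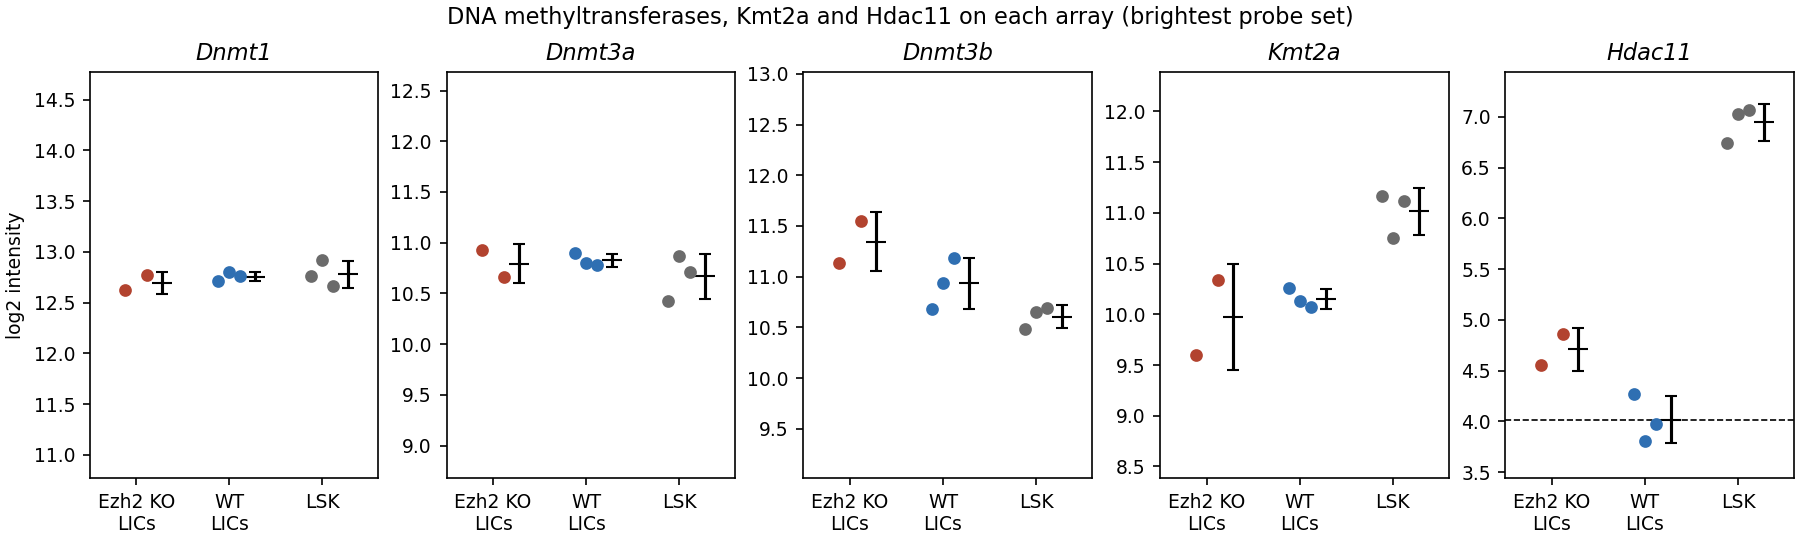
Log2 intensity of Dnmt1, Dnmt3a, Dnmt3b, Kmt2a and Hdac11 on each array (points), with group means and SD (bars), for Ezh2 KO LICs (n = 2), WT LICs (n = 3) and LSK cells (n = 3). Every panel spans the same number of log2 units, and the dashed line in the Hdac11 panel is background at 4.01. Hdac11 averaged 4.71 in Ezh2 KO LICs, 4.02 in WT LICs and 6.95 in LSK cells, while the Dnmt1 means lay between 12.70 and 12.78.

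Dnmt1, the maintenance methyltransferase, held nearly one level throughout. Its brighter probe set, 1435122_x_at, measured 12.62 and 12.77 in Ezh2 KO LICs, 12.71, 12.80 and 12.76 in WT LICs, and 12.76, 12.92 and 12.66 in LSK cells. The 3 groups overlapped, and no order of their means exceeded the spread. Ezh2 KO LICs differed from WT LICs by -0.06 (95% interval -0.40 to 0.28, limma adjusted p = 0.911), and WT LICs from LSK cells by -0.02 (-0.33 to 0.28, limma adjusted p = 0.948). Ezh2 KO LICs differed from LSK cells by -0.08 (-0.43 to 0.26, limma adjusted p = 0.817). Each interval leaves out a doubling or a halving. By the array maker's naming, the ending x_at marks probe sets in which some probes may match other transcripts too. The other probe set, 1422946_a_at, measured 9.69 and 10.18 in Ezh2 KO LICs, 10.22, 10.03 and 10.36 in WT LICs, and 9.98, 10.08 and 9.78 in LSK cells. Its groups overlapped as well, with differences of -0.27, 0.26 and -0.02 in the same order of comparisons and limma adjusted p between 0.49 and 0.979 over all probe sets.

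Dnmt1 acts at the replication fork, so genes of DNA replication and mitosis are given beside it. Over 24 of 25 listed G1/S and replication genes, the summed linear intensity was 53289 to 54849 in Ezh2 KO LICs, 54635 to 60207 in WT LICs and 48093 to 49282 in LSK cells. Neither LIC group overlapped LSK cells in this sum, and both were higher. By limma 0 of these genes were called in Ezh2 KO LICs against WT LICs (4 at an unadjusted p under 0.05), 1 in WT LICs against LSK cells (Ccne1, higher) and 0 in Ezh2 KO LICs against LSK cells (6 at an unadjusted p under 0.05). Over 19 of 20 genes of G2 and mitosis the sum was 29406 to 35197 in Ezh2 KO LICs, 28807 to 31693 in WT LICs and 17370 to 20297 in LSK cells, with no overlap of either LIC group with LSK cells. Of these mitotic genes 5 (26.3%) rose in WT LICs against LSK cells (Bub1b, Cdc20, Kif20a, Nuf2 and Plk1), where 1.27% of all genes were called higher. In Ezh2 KO LICs against LSK cells 3 (15.8%) rose (Nuf2, Plk1 and Ube2c), where 1.61% of all genes were called higher. The replication list had median differences of 0.15 in Ezh2 KO LICs and 0.19 in WT LICs against LSK cells, and the mitotic list had medians of 0.75 in Ezh2 KO LICs and 0.68 in WT LICs against LSK cells. Beside these stand differences from LSK cells of -0.08 in Ezh2 KO LICs and -0.02 in WT LICs for the brighter Dnmt1 probe set, and of -0.02 in Ezh2 KO LICs and 0.26 in WT LICs for the dimmer one.

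Dnmt3a, a de novo methyltransferase, had 5 probe sets that did not move together. The brightest, 1423064_at, measured 10.93 and 10.66 in Ezh2 KO LICs, 10.90, 10.80 and 10.78 in WT LICs, and 10.43, 10.87 and 10.71 in LSK cells. These groups overlapped, and the differences were -0.03 for Ezh2 KO against WT LICs (95% interval -0.45 to 0.39, limma adjusted p = 0.969), 0.16 for WT LICs against LSK cells (-0.22 to 0.53, limma adjusted p = 0.639) and 0.13 for Ezh2 KO LICs against LSK cells (-0.29 to 0.55, limma adjusted p = 0.758).

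Of the 4 dimmer Dnmt3a probe sets, 3 were higher in Ezh2 KO than in WT LICs on every array. The share of all probe sets that separate groups in this way was not counted, here or for other genes. Probe set 1423065_at measured 8.62 and 8.91 in Ezh2 KO LICs, 7.94, 8.07 and 8.01 in WT LICs, and 8.33, 8.33 and 8.48 in LSK cells. All 3 groups were separate there, with Ezh2 KO LICs on top, LSK cells next and WT LICs lowest. The difference between Ezh2 KO and WT LICs was 0.75 (95% interval 0.39 to 1.12), at an unadjusted p of 0.00168 and a limma adjusted p of 0.151 over the 20380 probe sets. Probe set 1423063_at measured 10.03 and 10.22 in Ezh2 KO LICs, 9.26, 9.55 and 9.53 in WT LICs, and 9.94, 10.04 and 9.96 in LSK cells. WT LICs were again the lowest group without overlap, by 0.68 under Ezh2 KO LICs (limma adjusted p = 0.196) and with WT LICs minus LSK cells at -0.53 (limma adjusted p = 0.0995). Probe set 1460324_at measured 8.29 and 8.43 in Ezh2 KO LICs, 6.98, 7.44 and 7.98 in WT LICs, and 7.81, 8.16 and 8.27 in LSK cells, where Ezh2 KO LICs exceeded WT LICs by 0.89 (limma adjusted p = 0.357).

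The remaining Dnmt3a probe set ran the other way. Probe set 1423066_at measured 7.72 and 7.77 in Ezh2 KO LICs, 8.09, 8.19 and 8.40 in WT LICs, and 8.54, 8.22 and 8.45 in LSK cells. Ezh2 KO LICs were the lowest group without overlap, at -0.48 against WT LICs (limma adjusted p = 0.391) and -0.66 against LSK cells (limma adjusted p = 0.0914). None of the 5 probe sets was called in any comparison. The mean of all 5 gave 0.36 for Ezh2 KO against WT LICs (limma adjusted p = 0.43), -0.31 for WT LICs against LSK cells (0.247) and 0.06 for Ezh2 KO LICs against LSK cells (0.889), so the size and sign of a Dnmt3a difference depended on the probe set read. The sources used here do not give the stretch of transcript that each probe set reads.

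**Figure D2:**
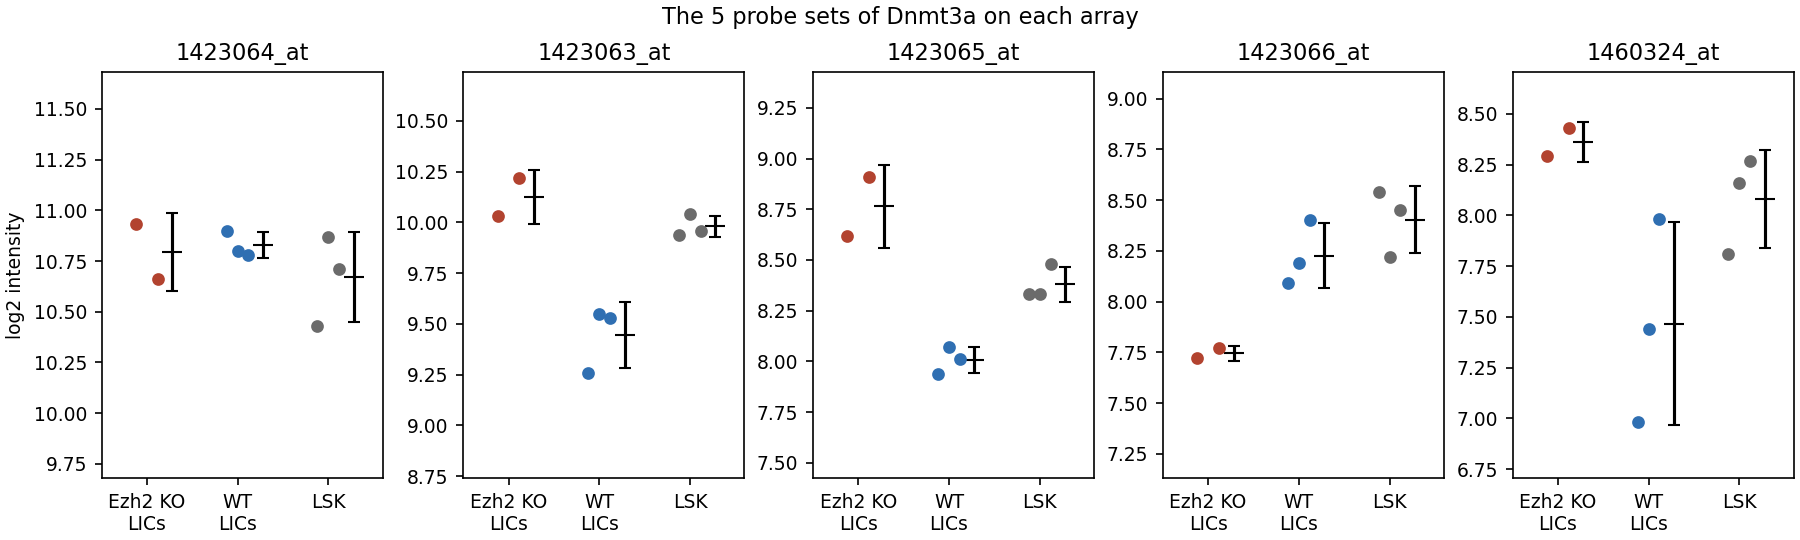
Log2 intensity of the 5 Dnmt3a probe sets on each array (points), with group means and SD (bars), for Ezh2 KO LICs (n = 2), WT LICs (n = 3) and LSK cells (n = 3). Probe sets 1423063_at, 1423065_at and 1460324_at have their lowest mean in WT LICs, 1423066_at has it in Ezh2 KO LICs, and in 1423064_at the groups overlap.

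Dnmt3b, the second de novo methyltransferase, was highest in Ezh2 KO LICs, although no difference passed the test. Probe set 1449052_a_at measured 11.14 and 11.55 in Ezh2 KO LICs, 10.68, 10.94 and 11.18 in WT LICs, and 10.48, 10.65 and 10.69 in LSK cells. Ezh2 KO LICs averaged 11.34 ± 0.29 (SD, n = 2), WT LICs 10.93 ± 0.25 (SD, n = 3) and LSK cells 10.60 ± 0.11 (SD, n = 3). Neighbours in this order overlapped, while Ezh2 KO LICs and LSK cells did not. Ezh2 KO LICs exceeded LSK cells by 0.74 (95% interval 0.26 to 1.22), a 1.67-fold difference with an unadjusted p of 0.00779 and a limma adjusted p of 0.099. Against WT LICs the difference was 0.41 (-0.07 to 0.89, limma adjusted p = 0.506), and WT LICs differed from LSK cells by 0.33 (-0.10 to 0.76, limma adjusted p = 0.364).

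The second Dnmt3b probe set, 1418351_a_at, measured 8.33 and 8.62 in Ezh2 KO LICs, 7.80, 8.19 and 8.19 in WT LICs, and 7.91, 8.0 and 7.69 in LSK cells. It kept the order of the group means, with both Ezh2 KO arrays above all others and an overlap between WT LICs and LSK cells. Its differences were 0.41 for Ezh2 KO against WT LICs, 0.20 for WT LICs against LSK cells and 0.61 for Ezh2 KO LICs against LSK cells (limma adjusted p = 0.522, 0.594 and 0.155 in that order). Leaving out Ezh2 KO replicate 2 lowered the first probe set's difference from LSK cells to 0.53, and leaving out replicate 1 raised it to 0.94. Its difference between Ezh2 KO and WT LICs was 0.53 without WT LIC replicate 3, the array that stood apart (limma adjusted p = 0.343). Without WT LIC replicate 1 that difference was 0.28 (limma adjusted p = 0.751), and without replicate 2 it was 0.41 (0.634).

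**Figure D3:**
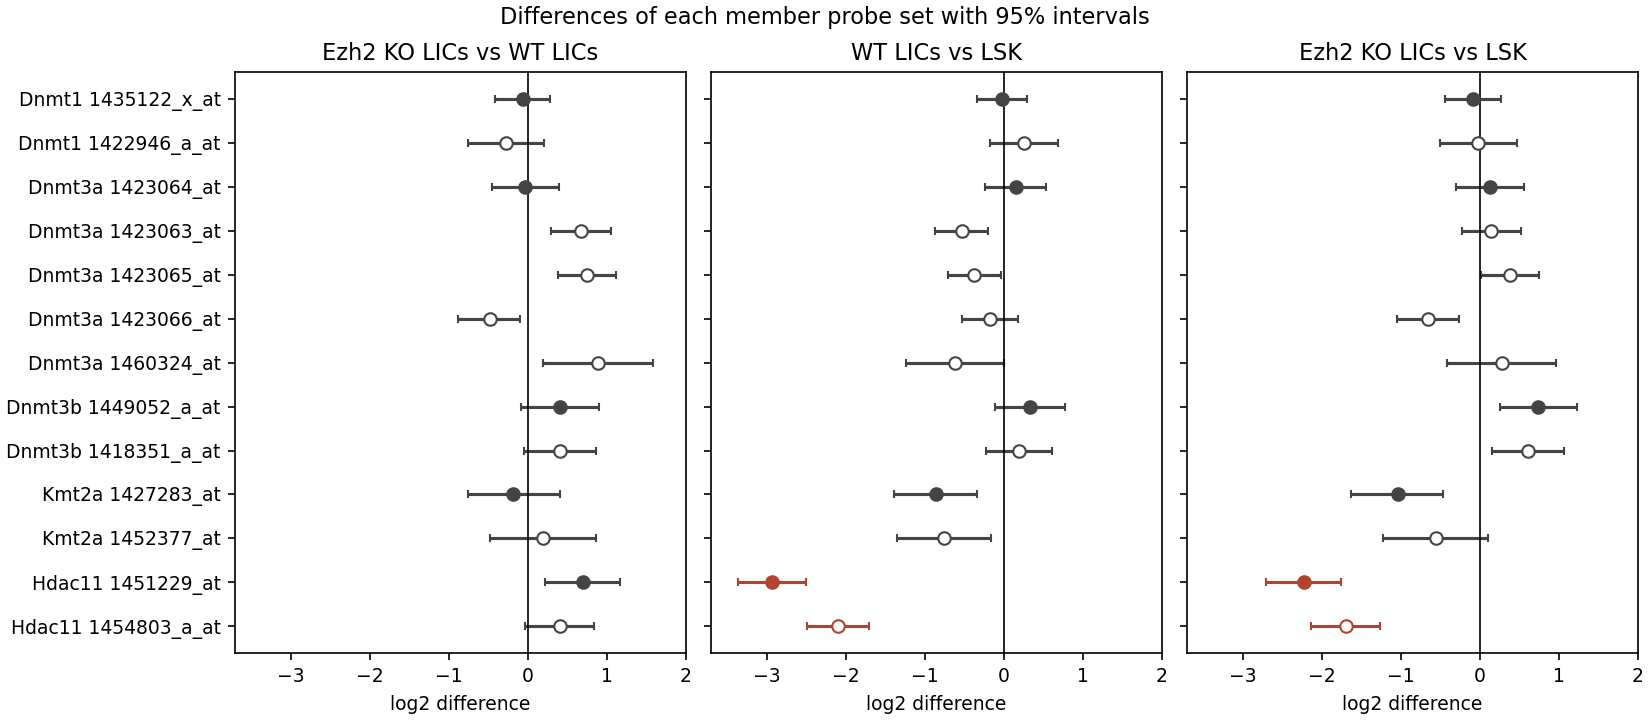
Log2 differences (points) with 95% intervals (bars) of the 13 probe sets in the 3 comparisons, from a fit over 20380 probe sets. Filled points are the probe sets that supply a gene's value, and red marks a limma adjusted p under 0.05. Both Hdac11 probe sets are red in the comparisons with LSK cells, at -2.93 and -2.10 for WT LICs and at -2.23 and -1.69 for Ezh2 KO LICs.

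Kmt2a, the H3K4 methyltransferase, was lower in both LIC groups than in LSK cells, with no overlap, but short of the threshold. Probe set 1427283_at measured 9.60 and 10.34 in Ezh2 KO LICs, 10.26, 10.13 and 10.07 in WT LICs, and 11.17, 10.75 and 11.12 in LSK cells. Ezh2 KO LICs averaged 9.97 ± 0.52 (SD, n = 2), WT LICs 10.15 ± 0.09 (SD, n = 3) and LSK cells 11.02 ± 0.23 (SD, n = 3). The Ezh2 KO arrays lay on both sides of the WT LIC arrays, and the difference between these groups was -0.18 (95% interval -0.75 to 0.40, limma adjusted p = 0.83). WT LICs differed from LSK cells by -0.86 (-1.38 to -0.35), a 1.82-fold lower value with an unadjusted p of 0.00508 and a limma adjusted p of 0.08. Ezh2 KO LICs differed from LSK cells by -1.04 (-1.62 to -0.47), 2.06-fold lower with an unadjusted p of 0.0034 and a limma adjusted p of 0.0675.

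Kmt2a passed the threshold under 2 other settings. With a trended robust prior the limma adjusted p was 0.0455 for WT LICs and 0.0382 for Ezh2 KO LICs against LSK cells, and with array weights 0.0411 for WT LICs and 0.0497 for Ezh2 KO LICs. Its range over 18 alternatives was 0.0411 to 0.199 in WT LICs and 0.0382 to 0.267 in Ezh2 KO LICs against LSK cells. Without Ezh2 KO replicate 1 the difference of Ezh2 KO LICs from LSK cells was -0.67, and without replicate 2 it was -1.41. The dimmer probe set, 1452377_at, measured 9.41 and 9.92 in Ezh2 KO LICs, 9.10, 9.38 and 9.94 in WT LICs, and 10.34, 10 and 10.34 in LSK cells. Its LIC arrays also all lay under the LSK arrays, by -0.56 in Ezh2 KO LICs (limma adjusted p = 0.348) and by -0.75 in WT LICs (limma adjusted p = 0.166).

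The family and the partners of Kmt2a are given beside it. Over all genes limma called 0.637% in Ezh2 KO against WT LICs. Against LSK cells it called 3.42% in WT LICs and 3.47% in Ezh2 KO LICs. Of 5 measured H3K4 methyltransferases of 7 listed, only Kmt2c passed, in Ezh2 KO LICs against LSK cells. Kmt2c, which places single methyl groups on H3K4 at enhancers, measured 7.69 and 7.91 in Ezh2 KO LICs, 8.45, 8.48 and 8.80 in WT LICs, and 9.52, 9.27 and 9.22 in LSK cells. The 3 groups did not overlap. Kmt2c fell by 1.53 in Ezh2 KO LICs against LSK cells (SE 0.18, limma adjusted p = 0.00892), a call lost without Ezh2 KO replicate 1 and with the replicate number as a block (highest adjusted p = 0.056). Its differences of -0.76 in WT LICs against LSK cells (limma adjusted p = 0.0514) and -0.78 in Ezh2 KO against WT LICs (limma adjusted p = 0.168) were not called. Of 18 measured subunits and partners of Kmt2 complexes, of 22 listed, limma called 0 in any comparison, while 2, 4 and 4 had an unadjusted p under 0.05 in Ezh2 KO against WT LICs, WT LICs against LSK cells and Ezh2 KO LICs against LSK cells. The partners with the smallest p were Mllt3, a chromatin reader and fusion partner of MLL, at -1.43 in WT LICs against LSK cells (limma adjusted p = 0.075), and Tasp1, the protease that cuts MLL1, at 1.31 in Ezh2 KO LICs against LSK cells (limma adjusted p = 0.124).

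Hdac11 was the member with a difference past the threshold, and it was lower in both LIC groups than in LSK cells. Probe set 1451229_at measured 4.56 and 4.86 in Ezh2 KO LICs, 4.27, 3.81 and 3.97 in WT LICs, and 6.74, 7.03 and 7.07 in LSK cells. The 3 groups were separate, with LSK cells highest, Ezh2 KO LICs next and WT LICs lowest, where 2 of 3 arrays were at or under background. Hdac11 fell by 2.93 in WT LICs against LSK cells in the fit (SE 0.18, 95% interval -3.35 to -2.51, limma adjusted p = 0.000479). Since only 1 WT LIC array measured it above background, the size is a bound: with the other arrays set to 4.01, Hdac11 was at least 7.21-fold lower in WT LICs. It fell by 2.23 in Ezh2 KO LICs against LSK cells (SE 0.20, -2.70 to -1.76, limma adjusted p = 0.00317), 4.7-fold lower. In these sorted bulk samples, fewer cells that express a gene and less of its RNA per cell cannot be told apart.

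Between the LIC groups, Hdac11 was higher in Ezh2 KO than in WT LICs on every array, with a fitted difference of 0.70 (SE 0.20, 95% interval 0.22 to 1.17). Set against the same bounded WT LIC level, the mean of Ezh2 KO LICs was at least 1.53-fold higher, and how much higher was not measured. This bound allows for background but not for the spread between arrays. With an unadjusted p of 0.00967 and a limma adjusted p of 0.257, the fitted difference did not pass. It did not pass under any of 18 alternatives either (0.155 to 0.807). The dimmer probe set, 1454803_a_at, measured 2.82 and 3.18 in Ezh2 KO LICs, 2.65, 2.61 and 2.53 in WT LICs, and 4.61, 4.55 and 4.93 in LSK cells. All of its LIC arrays were under background, which bounds its fold. Its value in WT LICs was at least 1.61-fold lower than in LSK cells (limma adjusted p = 0.00204), and the bound for Ezh2 KO LICs was the same 1.61-fold (limma adjusted p = 0.00801). Both comparisons of Hdac11 with LSK cells were called under all 18 alternatives, with adjusted p from 0.000338 to 0.00724 for WT LICs and from 0.00222 to 0.0311 for Ezh2 KO LICs. Without replicate 3 of WT LICs, the array that stood apart, WT LICs differed from LSK cells by -2.91 (limma adjusted p = 0.00259).

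The other zinc-dependent deacetylases are given beside Hdac11. Of 8 measured genes of 11 listed, Hdac11 alone was called (12.5%) in each comparison with LSK cells. Over all genes 3.42% were called there in WT LICs and 3.47% in Ezh2 KO LICs. The list median was 0.08 in WT LICs and -0.01 in Ezh2 KO LICs against LSK cells. Among 5 measured sirtuins, the deacylases that use NAD, the mitochondrial enzyme Sirt3 fell by 0.75 in Ezh2 KO LICs against LSK cells (limma adjusted p = 0.0433). Among 19 measured subunits of deacetylase corepressor complexes, the Sin3 complex subunit Suds3 rose by 0.82 in Ezh2 KO LICs against LSK cells (limma adjusted p = 0.0429). Each of these calls was lost under 11 of 18 alternatives, with adjusted p up to 0.187 for Sirt3 and 0.185 for Suds3. The second Suds3 probe set differed by 0.38 (limma adjusted p = 0.458).

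The genes nearest to Hdac11 in pattern were found by the root-mean-square difference of log2 values, each gene centred on its own mean over 8 arrays, among 6689 genes whose highest group mean lay above 7.16. Bgn, which encodes the proteoglycan biglycan, was nearest at 0.185, followed by the lipid carrier Apoe at 0.215 and the cholesterol exporter Abca1 at 0.333. Apoe measured 5.82 and 5.84 in Ezh2 KO LICs, 5.52, 4.99 and 5.12 in WT LICs, and 8.48, 8.11 and 8.25 in LSK cells. Bgn measured 5.36 and 5.55 in Ezh2 KO LICs, 4.97, 4.37 and 4.21 in WT LICs, and 7.18, 7.87 and 7.67 in LSK cells. Both had LSK cells highest and WT LICs lowest without overlap, as Hdac11 did. Since these genes were picked for their nearness to Hdac11 on the same arrays, the likeness and their calls follow from the choice. Bgn differed by -3.06 in WT LICs (limma adjusted p = 0.00201) and by -2.12 in Ezh2 KO LICs against LSK cells (0.0142), where the call of Ezh2 KO LICs was lost without either KO array and with the replicate number as a block. Apoe differed by -3.07 in WT LICs (limma adjusted p = 0.000402) and by -2.45 in Ezh2 KO LICs against LSK cells (0.00229). Abca1, at -2.49 in WT LICs (limma adjusted p = 0.00557) and -1.69 in Ezh2 KO LICs against LSK cells (0.0306), lost its WT LIC call when all its probe sets were averaged (0.118) and its Ezh2 KO LIC call under 9 of 18 alternatives.

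**Figure D4:**
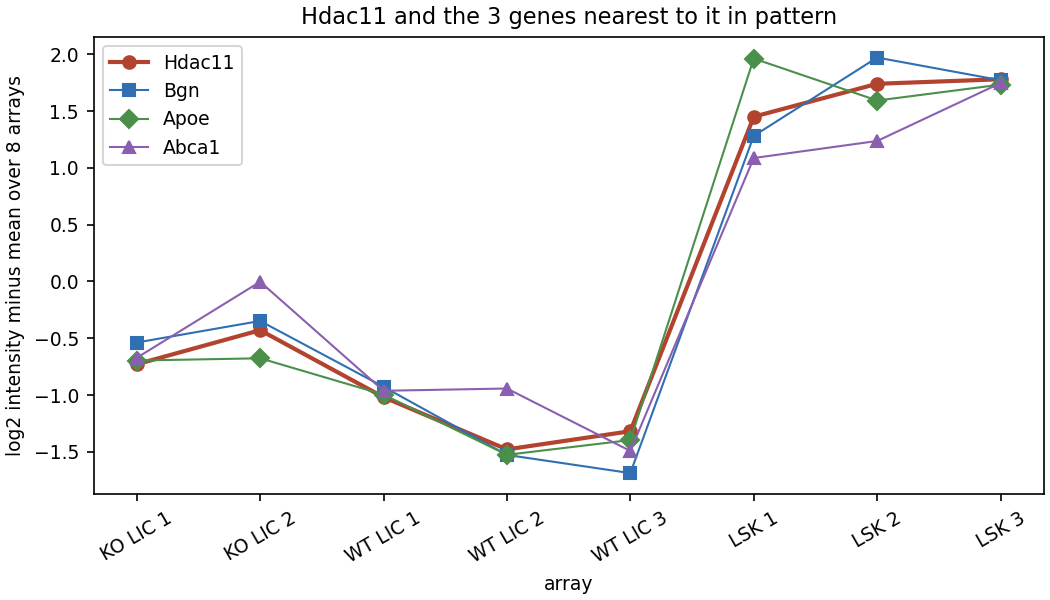
Log2 intensity of Hdac11, Bgn, Apoe and Abca1 on each of the 8 arrays, each gene minus its own mean over the arrays, with lines joining the points of a gene. All 4 genes are highest on the 3 LSK arrays, and within each gene the Ezh2 KO LIC points lie above those of WT LICs. Bgn, Apoe and Abca1 were picked for their nearness to Hdac11 on these arrays, so the likeness follows from the choice.

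Summed markers of antibody-secreting cells, of megakaryocytes and platelets and of stem cells were lower in LICs than in LSK cells, as Hdac11 was. Other lists were not. B cell and immediate early sums were higher in Ezh2 KO LICs than in LSK cells, and T and NK cell sums in WT LICs. Granulocyte and monocyte sums and erythroid sums of both LIC groups overlapped those of LSK cells. The values of these other lists follow below, and the part of any list in the Hdac11 result was not tested. Over 9 of 10 listed genes of antibody-secreting cells, the summed linear intensity was 1645 to 2350 in Ezh2 KO LICs, 1373 to 1751 in WT LICs and 12380 to 17656 in LSK cells. Of these, 4 (44.4%) fell in Ezh2 KO LICs (Ighm, Igk, Jchain and Tnfrsf17), where 1.86% of all genes were called lower. In WT LICs 3 (33.3%) fell (Ighm, Igk and Jchain), where 2.15% of all genes were called lower. The same shares over all genes apply to the lists that follow in this paragraph. Not every gene of the list was lower: differences from LSK cells ran from -8.96 to 0.59 in Ezh2 KO LICs and from -9.17 to 0.43 in WT LICs. Derl3 was at or under background in all 3 groups, Igk and Tnfrsf17 in both LIC groups, and Prdm1 in Ezh2 KO LICs. The sum over 8 of 9 megakaryocyte and platelet genes was 462 to 529 in Ezh2 KO LICs, 351 to 666 in WT LICs and 1423 to 2387 in LSK cells, with 1 called lower in Ezh2 KO LICs (Pf4) and 3 in WT LICs (Gp9, Pf4 and Treml1). Itgb3 was under background in all 3 groups. Differences of the megakaryocyte and platelet genes ran from -2.86 to 0.14 in Ezh2 KO LICs and from -3.09 to 0.23 in WT LICs. The sum over 9 of 12 stem cell genes was 2416 to 3591 in Ezh2 KO LICs, 1863 to 2354 in WT LICs and 5082 to 5750 in LSK cells. Of these, Kit fell in both LIC groups, and Hlf and Robo4 fell in WT LICs. The stem cell list ran from -1.85 to 0.51 in Ezh2 KO LICs and from -3.50 to -0.22 in WT LICs. Mecom was at or under background in all 3 groups, Hoxb5 in both LIC groups and Robo4 in WT LICs.

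Between the LIC groups, Hdac11 and 3 Dnmt3a probe sets were higher in Ezh2 KO LICs without passing. Some other lists were higher in Ezh2 KO LICs too, and their part in the values was not tested. The stem cell sums given above were higher on both Ezh2 KO arrays than on any WT LIC array, with a list median of 0.45 and, by limma, 0 of 9 genes called and 4 at an unadjusted p under 0.05. The sum over 12 of 13 B cell genes was 5694 to 8978 in Ezh2 KO LICs, 492 to 945 in WT LICs and 927 to 1413 in LSK cells, with 6 called higher in Ezh2 KO against WT LICs. Blk, Ms4a1 and Pax5 were at or under background in all 3 groups, and Blnk, Pou2af1 and Rag1 in WT LICs. The sum over 12 immediate early genes was 9203 to 18974 in Ezh2 KO LICs, 2634 to 3407 in WT LICs and 3640 to 7535 in LSK cells. Atf3 and Fosb (16.7% of the list) were called higher in Ezh2 KO against WT LICs, beside the same 0.589% of all genes. Atf3 and Fosb were at or under background in WT LICs and LSK cells, Nr4a1 in WT LICs and Egr2 in LSK cells. Granulocyte and monocyte genes summed to 11643 to 20138 in Ezh2 KO LICs, 19563 to 22876 in WT LICs and 18479 to 20070 in LSK cells. Erythroid genes summed to 2843 to 3895 in Ezh2 KO LICs, 2542 to 10762 in WT LICs and 3585 to 4107 in LSK cells, and T and NK cell genes to 3608 to 4159, 4287 to 5073 and 2056 to 3667 in the same groups.

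The wider set of chromatin genes was read from 13 lists, of which 124 of 168 distinct genes were measured. Of these, 0 were called in Ezh2 KO against WT LICs by limma (14 at an unadjusted p under 0.05), where the median difference was -0.02, against -0.05 over all genes. Against LSK cells, limma gave an unadjusted p under 0.05 to 30 of the 124 in WT LICs and 29 in Ezh2 KO LICs. The share of all genes at that unadjusted p was not counted, here or for the single lists. In WT LICs against LSK cells 4 were called (3.23%), Hdac11 and Tet1 lower and Prmt6 and Uty higher, with a median of -0.01, against 3.42% and 0.02 over all genes. In Ezh2 KO LICs against LSK cells 8 were called (6.45%), Apobec1, Hdac11, Kmt2c, Mbd1 and Sirt3 lower and Prmt6, Suds3 and Uty higher, with a median of -0.08, against 3.47% and -0.02 over all genes. Hdac11 in both comparisons and Uty in WT LICs were called under all 18 alternatives, and every other call was lost under at least 2. The counts moved between 2 and 9 in WT LICs and between 2 and 11 in Ezh2 KO LICs against LSK cells. In WT LICs the count was 2 without LSK replicate 1 or 3, WT LIC replicate 2 or either Ezh2 KO array. In Ezh2 KO LICs it was 11 without WT LIC replicate 3 and 2 to 5 without any other single array.

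**Figure D5:**
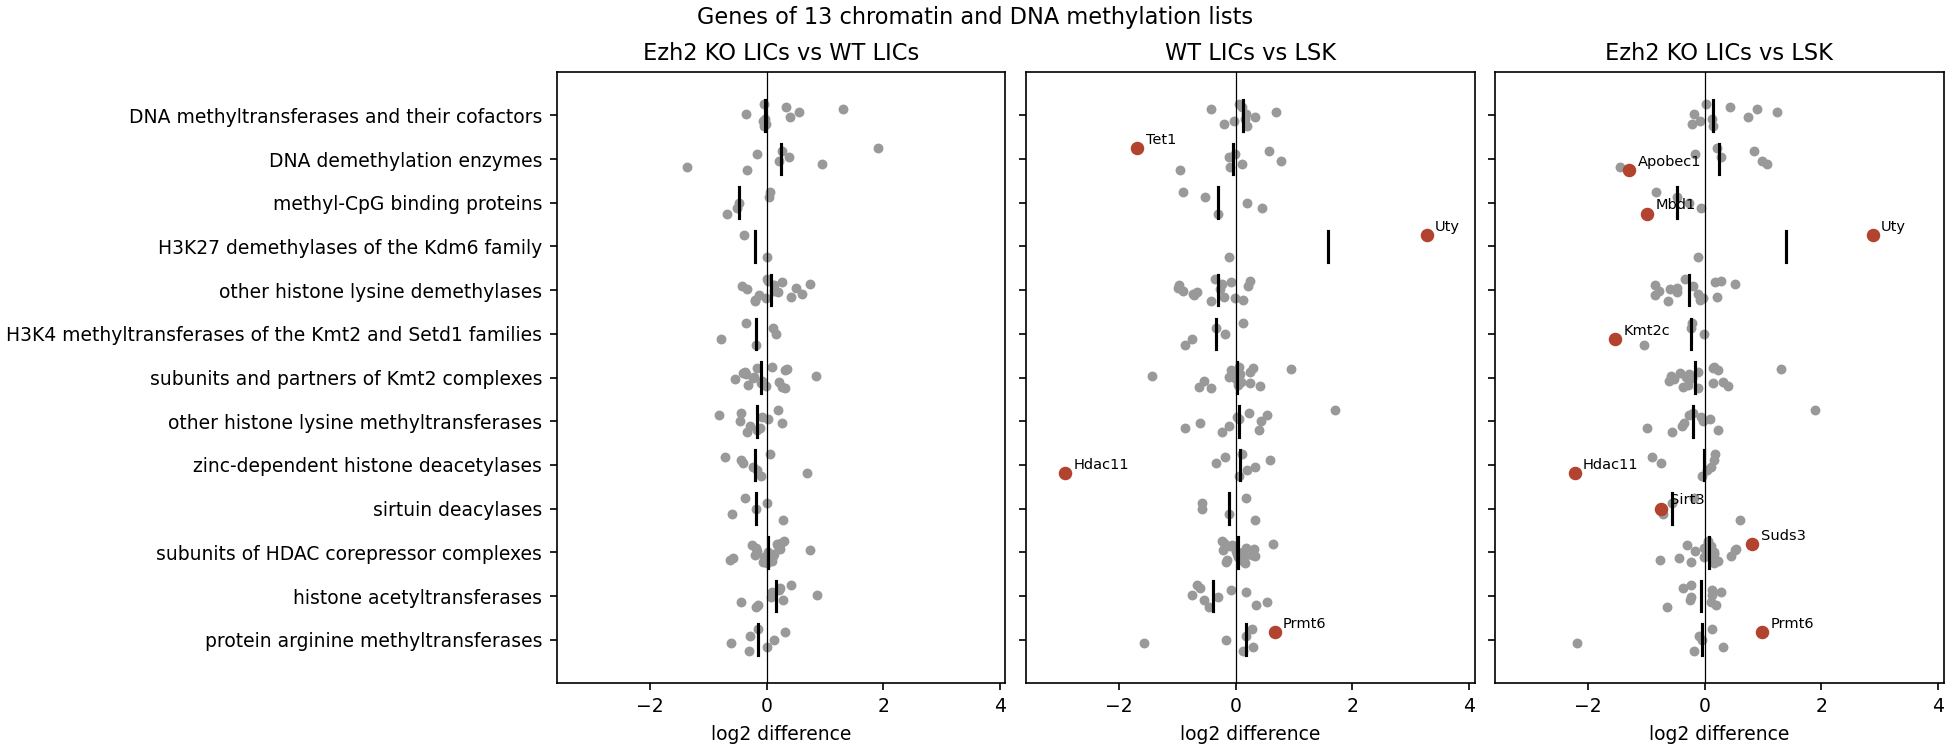
Log2 differences of the measured genes of 13 chromatin and DNA methylation lists (points) in the 3 comparisons, with list medians (black bars) and genes at a limma adjusted p under 0.05 in red. No gene is red in Ezh2 KO LICs against WT LICs, 4 are in WT LICs against LSK cells and 8 are in Ezh2 KO LICs against LSK cells, with Hdac11 the lowest red point in both comparisons with LSK cells.

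Around the DNA methyltransferases, 10 of 11 listed enzymes and cofactors were measured and 0 were called by limma in any comparison, with 3 at an unadjusted p under 0.05, all in Ezh2 KO LICs against LSK cells. The smallest p besides Dnmt3b was that of Hells, a helicase needed for DNA methylation at repeats, at 1.24 in Ezh2 KO LICs against LSK cells (limma adjusted p = 0.0932). Among 8 measured demethylation enzymes, Tet1, which oxidises methylcytosine, measured 6.67 and 6.65 in Ezh2 KO LICs, 4.83, 5.22 and 4.20 in WT LICs, and 6.88, 5.91 and 6.53 in LSK cells. The WT LIC arrays were the lowest, and the Ezh2 KO arrays lay within the LSK range. Tet1 fell by 1.69 in WT LICs against LSK cells (SE 0.32, limma adjusted p = 0.0367), a call lost under 9 of 18 alternatives (up to 0.112), and Ezh2 KO LICs exceeded WT LICs by 1.91 (SE 0.36, limma adjusted p = 0.0929). Its dimmer probe set gave -1.13 in WT LICs against LSK cells (limma adjusted p = 0.119), with the WT LIC mean under background. Apobec1, a cytidine deaminase known for editing RNA, fell by 1.30 in Ezh2 KO LICs against LSK cells (limma adjusted p = 0.0465, lost under 12 of 18 alternatives). Of 5 measured methyl-CpG binding proteins, Mbd1 fell by 0.99 in Ezh2 KO LICs against LSK cells (limma adjusted p = 0.0381, lost under 10 of 18).

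Of the family of Kdm6b, 2 of 3 genes were measured. Uty, the Y-linked relative of Kdm6a, measured 5.16 and 5.30 in Ezh2 KO LICs, 5.37, 5.13 and 6.38 in WT LICs, and 2.06, 2.49 and 2.50 in LSK cells. Its LSK arrays were all under background, like those of the Y-linked Eif2s3y. WT LICs exceeded LSK cells in Uty at least 3.06-fold (limma adjusted p = 0.00369). Ezh2 KO LICs exceeded them at least 2.33-fold (limma adjusted p = 0.0107), a call lost without either KO array (up to 0.064). Kdm6a was not called. Of 16 measured other histone lysine demethylases limma called 0, while 1, 4 and 4 had an unadjusted p under 0.05 in Ezh2 KO against WT LICs, WT LICs against LSK cells and Ezh2 KO LICs against LSK cells. At the smallest p stood Phf2 at 0.75 in Ezh2 KO against WT LICs (limma adjusted p = 0.236) and Kdm4c at -0.91 in WT LICs against LSK cells (limma adjusted p = 0.106), both known as histone lysine demethylases. The 3 dimmer Phf2 probe sets ran the other way in Ezh2 KO against WT LICs, at -0.10, -0.38 and -0.67.

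Among 7 measured arginine methyltransferases, Prmt6, which methylates arginine of histone H3, measured 9.40 and 9.28 in Ezh2 KO LICs, 9.03, 8.99 and 9.04 in WT LICs, and 8.38, 8.47 and 8.20 in LSK cells. The 3 groups did not overlap. Prmt6 rose by 0.99 in Ezh2 KO LICs (SE 0.15, limma adjusted p = 0.0195) and by 0.67 in WT LICs against LSK cells (SE 0.13, limma adjusted p = 0.04). The first call was lost under 6 and the second under 12 of 18 alternatives. Of 11 measured other lysine methyltransferases limma called 0, while 1, 4 and 3 had an unadjusted p under 0.05 in the same order of comparisons. At the smallest p stood Setdb1, an H3K9 methyltransferase, at -0.81 in Ezh2 KO against WT LICs (limma adjusted p = 0.168). Its dimmer probe sets gave -0.02 (limma adjusted p = 0.995 over all probe sets) and -0.29, the latter with both means under background. Beside it stood Kmt5b, an H4K20 methyltransferase, at -0.99 in Ezh2 KO LICs against LSK cells (limma adjusted p = 0.0989). The 3 dimmer Kmt5b probe sets differed there by -1.38 (limma adjusted p = 0.0263 over all probe sets, a call), -1.87 (limma adjusted p = 0.112) and -0.17 (limma adjusted p = 0.873), and the mean of all 4 was called (limma adjusted p = 0.0417). Of 10 measured histone acetyltransferases limma called 0, with 4 at an unadjusted p under 0.05, all in WT LICs against LSK cells. These included Kat2a at 0.55 and Ncoa3 at -0.66 in WT LICs against LSK cells (limma adjusted p = 0.152 and 0.232).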

How the data were processed

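Sorted cells were profiled on 8 Affymetrix-type arrays, 22690 probe sets each. Per the labels' protocols, RNA of the double-sorted cells was amplified by SPIA before biotin labelling, and the submitters' processing notes name RMA, no version. As deposited, the values are linear intensity, 1.94 to 19343.1, with matched distributions (SD of sorted log2 values between arrays up to 0.081), and log2 was taken from the deposited values with no pseudocount, a choice the design had allowed for. Array signal gives no read depth, and the number of arrays limits precision.

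Tests left out the 64 control probe sets and those with several symbols (691) or with none listed (1555). Of those with 1 symbol, 20351 matched RefSeq by gene ID. One limma 3.58.1 fit under R 4.3.3 held all 3 groups, with 5 residual degrees of freedom and no filter on dim genes. Intervals are 95% intervals of the fit. Folds against a mean at or under 4.01, from 27 bacterial control probe sets, are bounds. Exact permutation of single values was not used, since it cannot go below 0.1 here. Members and lists were chosen with earlier results of these data known. Besides members and Ezh2, list genes that were called were named, or else up to 2 with the smallest p, and the 3 genes nearest to a called member. The fit was tested on simulated data. Other normalizations, priors, weights, probe set rules, a dim filter, the replicate number as a block and each array left out were tried. Plots used matplotlib 3.10.9.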

Additional observations from a re-analysis of the deposited data

How the results depend on the processing

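Among the 5 measured members, 0 were called in Ezh2 KO against WT LICs under every alternative run. The count was 1 in WT LICs against LSK cells and 1 in Ezh2 KO LICs against LSK cells, except that both became 2, with Kmt2a beside Hdac11, under a trended robust prior and under array weights. With each array left out in turn the counts stayed at 0, 1 and 1. With the replicate number as a block they were 0, 1 and 1, while calls over all genes fell to 36, 252 and 147, against 79, 424 and 430 without it. Correlations of same-numbered deviations ran from -0.051 to 0.145, and those of differently numbered ones from -0.145 to 0.095. They cannot settle whether the numbers pair the samples, since deviations from a mean of 2 arrays mirror each other. Calls over all genes ranged from 25 to 146 in Ezh2 KO against WT LICs (35 with these groups fitted alone), from 176 to 917 in WT LICs against LSK cells and from 118 to 643 in Ezh2 KO LICs against LSK cells; the first and second of these lowest counts came without WT LIC replicate 1, the last without Ezh2 KO replicate 2, the 917 from array weights, and the highest others without WT LIC replicate 3. The 124 list genes had 1 call in Ezh2 KO against WT LICs without Ezh2 KO replicate 1. The cause of these shifts was not tested. No member changed sign while called. Signal near background limits Hdac11 in WT LICs, and 2 Ezh2 KO arrays limit every comparison of that group.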
